A study of Mus musculus with 18 samples.

Results

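The response of Apoe-/- macrophages to a low amount of oxidized low-density lipoprotein (oxLDL) was examined across the transcriptome. Of the 18 libraries of the series, the 3 from Apoe-/- cells given oxLDL at 10 µg/ml (oxLDL 10) were compared with the 3 from untreated Apoe-/- cells. Of 18668 gene symbols listed, the 12838 that reached 0.1 RPKM (reads scaled to gene length and to library size) in at least 3 of the 18 libraries were tested. All libraries held total RNA of bone marrow-derived macrophages (BMDM) of the C57BL6 background, grown for 7 days with 20 ng/ml M-CSF and then kept with oxLDL or with PBS as vehicle, for 16 h by the series record and for longer by the study's text. The other 4 groups were Apoe-/- cells with oxLDL at 60 µg/ml (oxLDL 60) and Apoe-/-/Treml4-/- double-knockout cells (DKO) under the same 3 conditions, with 3 biological replicates each. Every group, the untreated one included, lacked Apoe, so that no comparison with cells that make apolipoprotein E was possible. Age and sex of the mice were not among the labels used, the labels named more than 1 sequencer and read length without tying them to libraries, and one treatment label mentioned LPS, which was not resolved.

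Macrophages take up oxLDL through scavenger receptors and break it down in lysosomes. Cholesterol and oxysterols released from it activate the liver X receptors (LXR), which induce the efflux pumps ABCA1 and ABCG1, and hold back SREBP2, the factor that drives cholesterol synthesis. Oxidized lipids also activate NRF2, the master regulator of antioxidant genes, and LXR activity is known to restrain inflammatory genes in macrophages.

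The 6 libraries were first checked against their labels. Depth recovered from the table lay between 39.4 and 53.8 M reads over the 18 libraries. Of 8 macrophage markers 8 were tested, and their summed level ran from 8932 to 11764 RPKM in untreated and from 8586 to 11964 RPKM in oxLDL 10 libraries. Most of this sum was Lyz2 (6899 to 9911 RPKM over the 6 libraries), and 1 of the 8, Cd14, was called lower. A list of 8 neutrophil and granulocyte precursor markers summed to 30.2 to 47.4 RPKM in untreated and to 35.9 to 48.5 RPKM in oxLDL 10 libraries. Of these, Ly6g and Retnlg were listed at 0 in all 6 libraries, while S100a8 ran from 10.4 to 17.0 RPKM and S100a9 from 12.6 to 22.2 RPKM. T cell, B cell, dendritic cell, mast cell and erythroid lists each summed to at most 2.21 RPKM in every library. Megakaryocyte, endothelial and osteoclast lists reached 2.43, 3.87 and 11.4 RPKM. No member of these lists was called. A list of 5 fibroblast genes, from Col1a1 to Dcn, summed to 0.954 to 14.4 RPKM in untreated and to 0.736 to 15.1 RPKM in oxLDL 10 libraries; replicate 2 was the lowest in both groups. Its part in the results was not tested. Replicate 2 also carried Xist (12.5 RPKM untreated and 7.25 RPKM with oxLDL 10) and at most 0.0515 RPKM summed over 4 Y-linked genes, while replicates 1 and 3 showed the opposite pattern. Untreated replicate 1 had the smallest scaling factor of the 18 libraries (0.894) and 3648 RPKM of Lars2, a gene singled out after its values were seen, against 799 and 52.5 RPKM in untreated replicates 2 and 3 and 13.9, 8.34 and 1539 RPKM with oxLDL 10. The per-replicate median difference over all genes was uneven, at 0.22, 0.02 and -0.04 on the log2 scale for replicates 1, 2 and 3. Residual Apoe transcripts stood at 0.937, 1.87 and 1.15 RPKM untreated and at 1.65, 4.13 and 1.75 RPKM with oxLDL 10 (limma log2 difference 0.81, SE 0.40, adjusted p = 0.242; with the replicate block, limma adjusted p = 0.00013). Treml4, present in this genotype, stood at 1.86, 3.48 and 2.6 RPKM untreated and at 3.27, 3.61 and 3.08 RPKM with oxLDL 10 (limma adjusted p = 0.197).

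The promoters of 5 genes with different responses are shown so that the motif counts that follow can be read against the letters. Each sequence runs 5′ to 3′ on the gene's strand, from 250 bases before to 50 bases after the RefSeq transcription start (GRCm38.p6), and capitals mark matches on either strand to a kB motif (GGANTTNCC), an interferon-stimulated response element (ISRE, GAAANNGAA), an AP-1 motif (TGANTCA), an NRF2 motif (TGANNNNGC) or a sterol regulatory element (SRE, TCACNCCAC). Cxcl10, Il1b and Abca1 were chosen by rule, and Gbp5 and Srxn1 were added after their values were seen.
Cxcl10 (chr5:92348840-92349139, minus strand): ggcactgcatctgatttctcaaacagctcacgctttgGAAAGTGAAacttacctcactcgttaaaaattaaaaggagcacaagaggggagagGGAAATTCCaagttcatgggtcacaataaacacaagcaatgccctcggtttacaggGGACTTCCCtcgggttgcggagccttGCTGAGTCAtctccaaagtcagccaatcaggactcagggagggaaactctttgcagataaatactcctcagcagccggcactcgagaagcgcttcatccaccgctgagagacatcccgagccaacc
Gbp5 (chr3:142496684-142496983, plus strand): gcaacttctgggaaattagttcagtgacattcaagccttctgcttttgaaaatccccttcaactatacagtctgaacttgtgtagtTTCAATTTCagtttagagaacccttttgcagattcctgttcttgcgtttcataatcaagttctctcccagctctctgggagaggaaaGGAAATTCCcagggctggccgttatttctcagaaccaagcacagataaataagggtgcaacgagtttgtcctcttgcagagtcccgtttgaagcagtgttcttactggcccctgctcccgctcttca
Il1b (chr2:129371090-129371389, minus strand): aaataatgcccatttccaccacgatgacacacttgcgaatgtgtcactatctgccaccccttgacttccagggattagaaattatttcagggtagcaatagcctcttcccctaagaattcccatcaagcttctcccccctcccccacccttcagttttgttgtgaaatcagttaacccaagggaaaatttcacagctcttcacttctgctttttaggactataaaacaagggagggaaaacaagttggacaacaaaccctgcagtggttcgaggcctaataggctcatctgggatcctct
Abca1 (chr4:53159846-53160145, minus strand): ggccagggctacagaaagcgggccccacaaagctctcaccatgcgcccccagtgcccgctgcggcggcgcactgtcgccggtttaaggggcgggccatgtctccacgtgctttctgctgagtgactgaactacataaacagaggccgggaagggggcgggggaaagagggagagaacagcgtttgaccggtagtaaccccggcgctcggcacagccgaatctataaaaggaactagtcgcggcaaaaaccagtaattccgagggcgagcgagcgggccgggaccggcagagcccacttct
Srxn1 (chr2:152105274-152105573, plus strand): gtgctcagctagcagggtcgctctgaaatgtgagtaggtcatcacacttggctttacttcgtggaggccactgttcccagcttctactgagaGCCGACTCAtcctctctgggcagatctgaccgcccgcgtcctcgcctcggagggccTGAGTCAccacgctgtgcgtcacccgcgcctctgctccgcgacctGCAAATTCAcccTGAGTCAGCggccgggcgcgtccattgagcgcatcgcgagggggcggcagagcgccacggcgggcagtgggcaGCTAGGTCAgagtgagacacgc

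The Cxcl10 promoter held an ISRE match starting at base -213 from the start site and kB matches at -158 and -102, with an NRF2 match at -76 that overlapped an AP-1 match at -74. Gbp5 held an ISRE match at -164 and a kB match at -77. Srxn1 held AP-1 matches at -102 and -45, and the latter overlapped an NRF2 match. None of these letters occurred in the Il1b or Abca1 window. Among the 200 genes called lower that had a promoter in the table, 28.5% held an ISRE match, against 8.76% of the 10153 genes tested that had one and 8.56% of all 32851 promoters. For kB the shares were 10.5%, 4.94% and 3.95%. Of the 72 genes called higher with a promoter, 8.33% held an ISRE match and 0 a kB match, while 19.4% held the AP-1 motif, against 11.5% of those called lower, 6.31% of genes tested and 7.81% of all promoters. The NRF2 motif, which is short and loose, was found in 56.9% of genes called higher, 48.0% of those called lower, 47.8% of genes tested and 41.3% of all promoters. An SRE match was found in 1.39% of genes called higher, 1.5% of those called lower, 1.39% of genes tested and 1.24% of all promoters. Of called interferon-inducible GTPases, 9 of 10 with a promoter held an ISRE match, and of called type I interferon genes 12 of 22 did. These shares describe letters in a window and not bound sites.

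Among genes past a fold limit, more were lower than higher with oxLDL 10, and without that limit the balance was turned. With limma on log2(RPKM + 0.1), 358 genes were called at an adjusted p under 0.05 and a fold change of at least 1.4, which was 2.79% of those tested. Of these, 96 were higher (0.748%) and 262 lower (2.04%), and each of the 358 moved the same way in 3 of 3 replicate pairs, as did 37.1% of all genes tested. At an adjusted p under 0.05 with no limit on the fold change, limma gave 503 genes higher and 401 lower, and at an unadjusted p under 0.05 it gave 2028 higher and 843 lower. The 3 oxLDL 10 and 3 untreated libraries did not overlap for 350 of the 358, or 97.8%, against 20.5% of all genes tested. The calls were made from these same libraries, so neither this share nor that of the replicate pairs is separate support for them. The median called change was 0.63 upward and -0.81 downward on the log2 scale, with 9 genes raised and 86 lowered by at least 2-fold, beside a median of 0.07 over all genes tested. Of the calls, 63 had a mean under 1 RPKM. In bulk RNA, fewer cells of a type and less RNA per cell cannot be told apart. After rescaling by the median ratio the median over all genes tested was 0.0076, and 69 genes were called higher and 332 lower. The balance without the fold limit was not tested on rescaled values. With the replicate block 166 genes were higher and 362 lower, among them all 358. Without untreated replicate 1, 59 were higher and 351 lower, and without untreated replicate 2, 93 were higher and 174 lower.

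**Figure D1:**
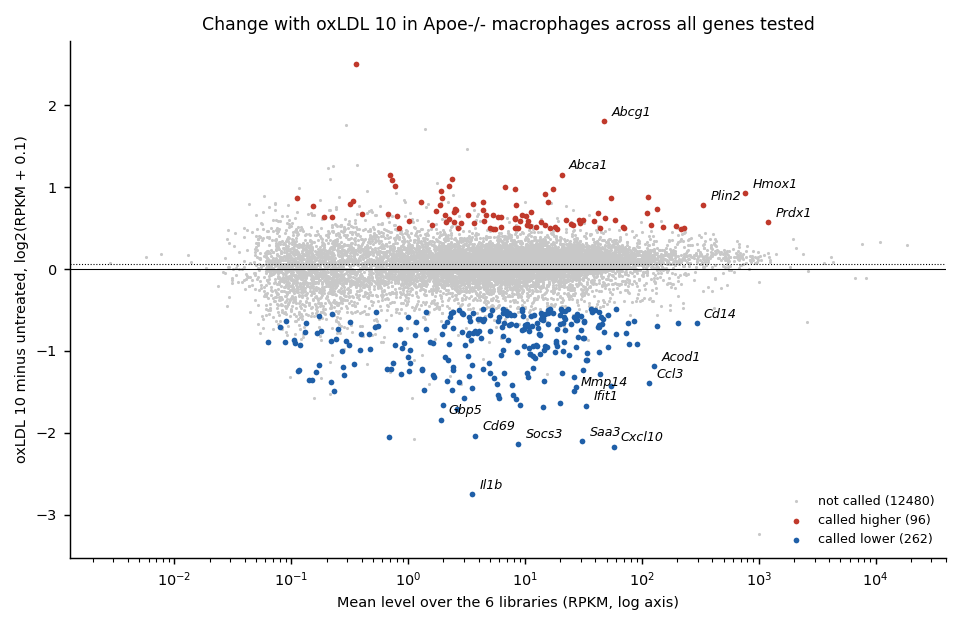
Difference between oxLDL 10 and untreated Apoe-/- macrophages (y axis, log2(RPKM + 0.1)) against the mean of the 6 libraries (x axis, RPKM, log axis) for the 12838 genes tested, 1 point per gene. Red points are the 96 genes called higher and blue points the 262 called lower, the dotted line is the median of all genes, and the lowest blue point is Il1b at -2.75.

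Some cholesterol efflux and LXR target genes rose. Of 19 genes tested in this list, 6 were higher (Abcg1, Abca1, Mylip, Scd2, Plin2 and Arl4c) and 1, the fatty acid synthase Fasn, was lower, with a median of 0.20. Beside this, 0.748% of all genes tested were called higher and 2.04% lower, with a median of 0.07. Abcg1, which exports cholesterol to HDL, stood at 12.6, 26.9 and 26.0 RPKM without oxLDL (replicates 1 to 3) and at 64.7, 84.8 and 69.1 RPKM with oxLDL 10. Every treated library lay above every untreated one, and the mean rose 3.34-fold (limma log2 fold change 1.80, SE 0.24, adjusted p = 0.000298). Abca1, which loads cholesterol onto lipid-poor apolipoprotein A-I, stood at 6.40, 19.6 and 14.3 RPKM untreated and at 22.1, 34.6 and 26.1 RPKM with oxLDL 10. The groups did not overlap, but the untreated libraries were widely spread (13.4 ± 6.67 RPKM, SD, n = 3), and replicate 1 was the lowest in both groups. Its log2 fold change was 1.15 (limma, SE 0.32, adjusted p = 0.0385), and the call was lost in 8 of 16 alternatives. These were without untreated replicate 1 (0.69, adjusted p = 0.160), or without oxLDL 10 replicate 1 (adjusted p = 0.0588), 2 (adjusted p = 0.119) or 3 (adjusted p = 0.0811). The others were rescaling by the median ratio (limma adjusted p = 0.0529), no trend in eBayes (0.0617), no filter on low values (0.0868) and the 6 libraries alone (0.117). Mylip, a ubiquitin ligase induced by LXR, stood at 8.73, 14.0 and 12.6 RPKM untreated and at 21.7, 26.0 and 21.2 RPKM with oxLDL 10 (limma log2 fold change 0.98, SE 0.15, adjusted p = 0.000777). Scd2, a stearoyl-CoA desaturase, went from 5.68 ± 2.08 to 10.9 ± 1.25 RPKM (0.97 by limma, SE 0.18, adjusted p = 0.00341), again without overlap.

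**Figure D2:**
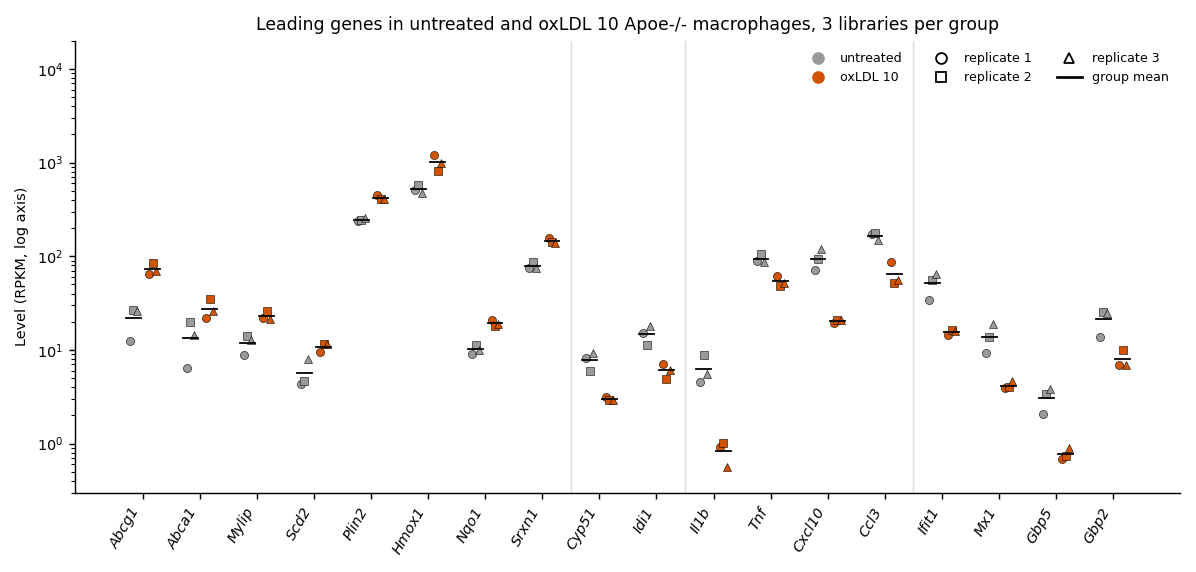
Levels (RPKM, log axis) of 18 genes in the 3 untreated (grey) and 3 oxLDL 10 (orange) Apoe-/- libraries, with the replicate number given by the marker shape and the group mean by a black bar. From left to right the genes belong to lipid and antioxidant genes, cholesterol synthesis, cytokines and chemokines, and the interferon response. The 2 groups of points do not overlap for any of the 18, against 20.5% of all genes tested. All 18 were picked among genes called in these libraries, so this is no separate support.

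Some genes of lipid storage rose as well. In the list of PPAR targets and lipid storage genes 4 of 20 were higher and 0 lower, with a median of 0.18, and without untreated replicate 1 the counts were 2 and 1. The shares over all genes tested were 0.748% higher and 2.04% lower. Plin2, 1 of the 4, is also among the LXR calls above. Plin2, the coat protein of lipid droplets and an abundant transcript, stood at 238, 245 and 256 RPKM untreated and at 448, 408 and 411 RPKM with oxLDL 10, a 1.71-fold rise larger than the spread within groups (limma log2 fold change 0.78, SE 0.12, adjusted p = 0.000862). Angptl4, an inhibitor of lipoprotein lipase, went from 1.54, 0.887 and 1.48 to 2.75, 2.34 and 2.57 RPKM (0.95 by limma, SE 0.18, adjusted p = 0.00341). Cpt1a, which admits fatty acids to mitochondria and was named after its values were seen, rose by 0.54 on the log2 scale, and without untreated replicate 1 it was under the fold limit (0.48). Hilpda, an inhibitor of droplet lipolysis, rose by 0.66 (limma, SE 0.18, adjusted p = 0.0333), a call that was lost when any 1 of the 6 libraries was left out (adjusted p 0.0571 to 0.111). Pparg itself had a log2 difference of 0.19 (limma, SE 0.10, adjusted p = 0.296).

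In the list of scavenger and lipoprotein receptors, only part of which take up oxLDL, no gene rose by the calling rule. Of 14 tested, 0 were higher, while the lectin-like receptor Olr1 (-0.80) and Marco (-0.99), named after its values were seen, were lower. Without oxLDL 10 replicate 1 neither was called (Marco -0.94, limma adjusted p = 0.0530), and without oxLDL 10 replicate 2 the list held 1 higher gene. With a pseudocount of 1 both were under the fold limit (Marco -0.34, Olr1 -0.46), and 0 genes of the list were lower. Marco also lost its call with a pseudocount of 0.01 (limma adjusted p = 0.0769). Cd36, a main oxLDL receptor, stood at 174, 198 and 215 RPKM untreated and at 257, 279 and 258 RPKM with oxLDL 10, where the groups did not overlap but the log2 difference of 0.44 (SE 0.14) missed the threshold (limma adjusted p = 0.0820). The class A receptor Msr1 went from 158, 204 and 194 to 163, 166 and 162 RPKM, which overlapped. The call of Olr1 (limma adjusted p = 0.0204) was lost without untreated replicate 2 (adjusted p = 0.104) or oxLDL 10 replicates 1 (0.0839) or 3 (0.0835). Fatty acid synthesis was mixed, with 1 gene of 20 higher (Scd2) and 3 lower, namely Fasn (-0.74), the desaturase Fads2 (-0.86) and the elongase Elovl6 (-0.58, named after its values were seen). Over all genes tested 0.748% were called higher and 2.04% lower. The call of Elovl6 was lost without untreated replicate 1 (limma adjusted p = 0.0552) or oxLDL 10 replicate 2 (0.0664).

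Genes of cholesterol synthesis and the SREBP2 pathway fell in the majority. Of 26 genes tested 16 were lower and 0 higher, against 2.04% and 0.748% of all genes tested. The median was -0.58, and the lower count stayed between 13 and 18 over the 16 alternatives. Cyp51, the lanosterol demethylase, went from 8.25, 5.99 and 9.24 to 3.17, 2.91 and 2.93 RPKM (limma log2 fold change -1.33, SE 0.16, adjusted p = 0.000134). Idi1, which isomerizes isopentenyl diphosphate, went from 15.2, 11.3 and 18.0 to 7.12, 4.90 and 6.17 RPKM (-1.27 by limma, SE 0.15, adjusted p = 0.000134). For both genes untreated replicate 2 was the lowest of its group and still above all treated libraries.

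Part of the antioxidant genes rose. Of 34 NRF2 targets and antioxidant genes tested 10 were higher and 0 lower, 21 of the 34 reached an unadjusted limma p under 0.05 and each of those was higher, against 15.8% of all genes tested that were higher at that p. The list's median was 0.34, and the median difference was 0.53, 0.32 and 0.12 in replicates 1, 2 and 3. Replicate 1 held the lowest untreated value for 28 of the 34 genes, against 8806 of the 12838 genes tested. The higher count lay between 8 and 12 over the 16 alternatives. It was 8 without untreated replicate 1 or oxLDL 10 replicate 1, and 9 after rescaling by the median ratio. Hmox1, which degrades heme, stood at 514, 582 and 472 RPKM untreated and at 1215, 821 and 978 RPKM with oxLDL 10. All treated libraries were above all untreated ones, with the smallest rise in replicate 2 (limma log2 fold change 0.93, SE 0.15, adjusted p = 0.00115). Nqo1, a quinone reductase, went from 9.14, 11.3 and 10.0 to 21.0, 17.9 and 19.0 RPKM (0.92 by limma, SE 0.10, adjusted p = 4.8e-05). Srxn1, which restores oxidized peroxiredoxins, went from 74.8, 86.3 and 75.8 to 156, 143 and 138 RPKM (0.88 by limma, SE 0.11, adjusted p = 0.000134). Prdx1, a peroxiredoxin and the most abundant gene called higher, went from 868, 1037 and 991 to 1492, 1440 and 1362 RPKM (0.57 by limma, SE 0.10, adjusted p = 0.00300). In the iron list, 2 of 16 genes were higher and 1 lower (2 lower with the replicate block), beside 0.748% and 2.04% of all genes tested. The exporter of iron Slc40a1 went from 1.59, 1.74 and 2.42 to 3.11, 3.15 and 3.28 RPKM (0.72 by limma, SE 0.15, adjusted p = 0.00827), and Lcn2, which binds iron-loaded siderophores, fell by 0.93. The third call was Hmox1.

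**Figure D3:**
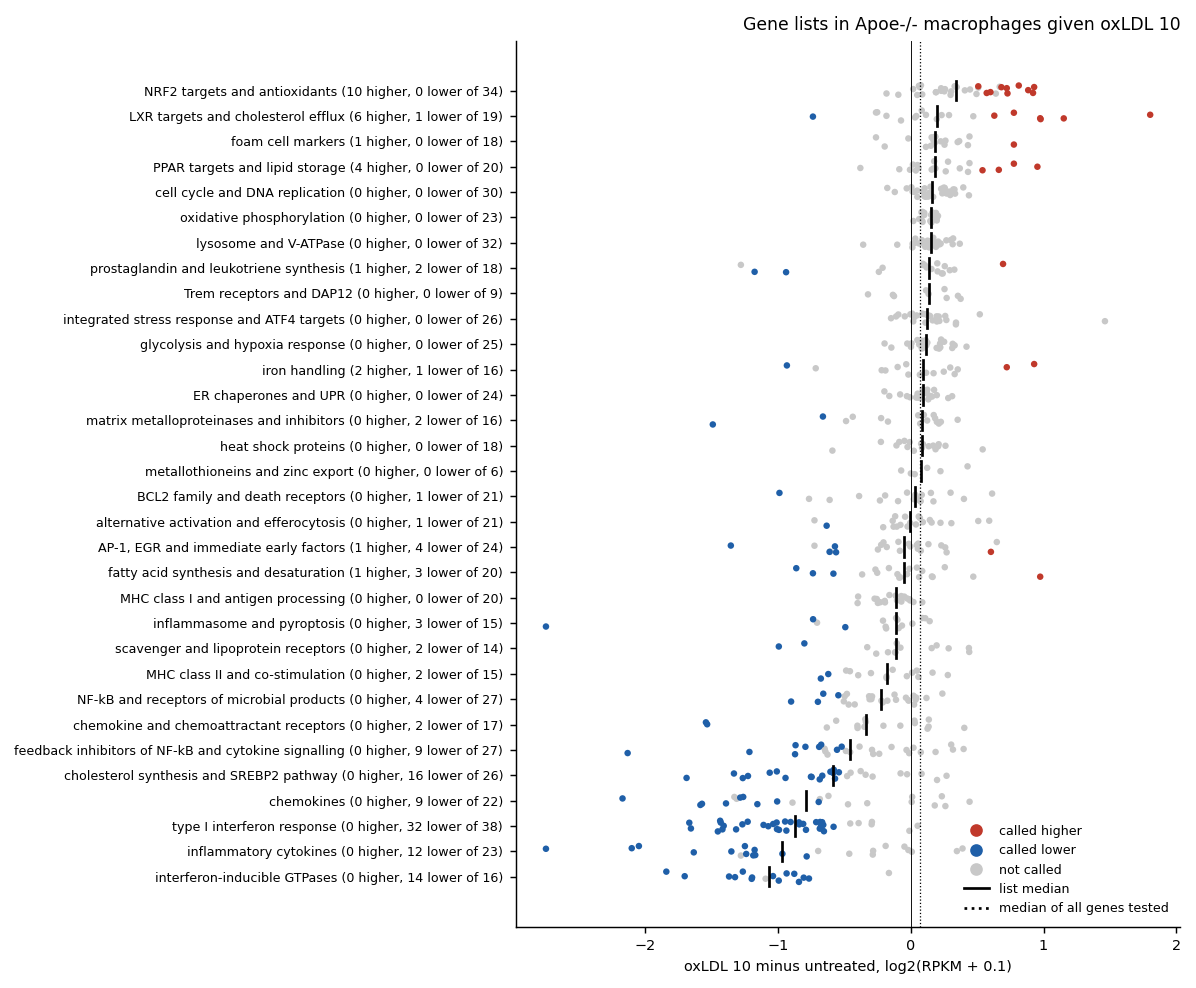
Difference between oxLDL 10 and untreated Apoe-/- macrophages (x axis, log2(RPKM + 0.1)) for the members of 32 gene lists, 1 point per gene tested, red if called higher, blue if called lower and grey if not called. Black bars are list medians, ordered from the interferon-inducible GTPases at -1.07 to the NRF2 targets at 0.34, and the dotted line is the median of all genes tested at 0.07.

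Many inflammatory cytokines and mediators fell. Of 23 tested, 12 were lower, 0 were higher and the others were not called, against 2.04% lower over all genes tested. The list's median was -0.97. The lower count lay between 8 and 14 over the 16 alternatives, at 8 without untreated replicate 2. Without the Xist-positive libraries 1 gene was higher. Il1b, the precursor of interleukin-1 beta, stood at 4.5, 8.71 and 5.57 RPKM untreated and at 0.928, 1.02 and 0.558 RPKM with oxLDL 10. It was 7.51-fold lower in the mean with a wide gap between the groups (limma log2 fold change -2.75, SE 0.38, adjusted p = 0.000398). Tnf, at 88.4, 105 and 86.4 RPKM untreated, was at 62.2, 48.1 and 52.2 RPKM with oxLDL 10 (-0.79 by limma, SE 0.15, adjusted p = 0.00341). Ch25h, the cholesterol 25-hydroxylase that makes 25-hydroxycholesterol, went from 31.2, 36.3 and 23.2 to 12.4, 6.92 and 10.0 RPKM (-1.64 by limma, SE 0.20, adjusted p = 0.000187). Saa3, an acute-phase protein, went from 30.1, 71.6 and 49.2 to 10.2, 17.0 and 7.52 RPKM. Its log2 fold change of -2.10 (limma, SE 0.54, adjusted p = 0.0271) lost the call without untreated replicate 2 (adjusted p = 0.111) or 3 (0.0545), or without oxLDL 10 replicate 1 (0.0865) or 3 (0.0999). Acod1, which makes itaconate, went from 122, 245 and 168 to 63.6, 107 and 62.2 RPKM (-1.19 by limma, SE 0.28, adjusted p = 0.0159), and that call was lost without untreated replicate 2 (adjusted p = 0.0848) or oxLDL 10 replicates 1 (0.0758) or 3 (0.0669).

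Among chemokines, 9 of 22 were lower and 0 higher, with a median of -0.79, and without oxLDL 10 replicate 1 the lower count was 5. Cxcl10, an attractant of T cells that interferons induce, stood at 70.6, 92.8 and 120 RPKM untreated and at 19.4, 20.9 and 20.8 RPKM with oxLDL 10. The mean went from 94.4 ± 24.7 to 20.4 ± 0.829 RPKM (SD, n = 3), 4.63-fold lower, with a spread between treated libraries far below that between untreated ones (limma log2 fold change -2.17, SE 0.23, adjusted p = 4.8e-05). Ccl3, which attracts monocytes and was the most abundant of these calls, went from 173, 176 and 148 to 86.4, 51.6 and 55.4 RPKM (-1.39 by limma, SE 0.28, adjusted p = 0.00625). Cxcl3, an attractant of neutrophils, went from 9.93, 19.3 and 8.55 to 3.84, 6.46 and 2.31 RPKM (-1.59 by limma, SE 0.32, adjusted p = 0.00593). Ccl2, the main monocyte chemokine, did not follow. It stood at 285, 159 and 177 RPKM untreated and at 444, 89.2 and 329 RPKM with oxLDL 10, where replicate 2 was lower and replicates 1 and 3 were higher (limma log2 difference 0.23, SE 0.62, adjusted p = 0.875), and the sign of this difference turned when oxLDL 10 replicate 1 (-0.22) or 3 (-0.01) was left out. Of 17 chemokine and chemoattractant receptors 2 were lower (4 with the replicate block), against 2.04% of all genes tested. Both are receptors for formylated peptides. Fpr1 went from 7.11, 9.75 and 9.54 to 2.74, 3.42 and 2.66 RPKM (-1.54 by limma, SE 0.33, adjusted p = 0.00907). Fpr2 (-1.54, limma adjusted p = 0.0224) lost its call without untreated replicate 2 (adjusted p = 0.0947) or 3 (0.0504), or oxLDL 10 replicate 1 (0.108) or 3 (0.0655). Cx3cr1, the fractalkine receptor, went from 147, 175 and 163 to 108, 120 and 100 RPKM, without overlap and without a call (-0.56 by limma, SE 0.24, adjusted p = 0.175), and it was called with the replicate block (limma adjusted p = 0.000239).

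A minority of the genes listed as feedback regulators of NF-kB and cytokine signalling fell. So did a few receptors of microbial products, while no NF-kB subunit was called. Of 27 in the feedback list, which is not limited to inhibitors, 9 were lower and 0 higher, against 2.04% and 0.748% of all genes tested. The list's median was -0.46. Without oxLDL 10 replicate 2 the counts were 11 and 1. Socs3, an inhibitor of JAK and STAT signalling, stood at 12.3, 19.0 and 11.9 RPKM untreated and at 3.38, 3.49 and 2.58 RPKM with oxLDL 10 (limma log2 fold change -2.13, SE 0.20, adjusted p = 2.3e-05). Nfkbiz, a nuclear regulator of NF-kB, went from 7.56, 10.5 and 9.76 to 4.79, 5.78 and 4.5 RPKM (-0.87 by limma, SE 0.12, adjusted p = 0.000367). Nfkbia, the classical inhibitor of NF-kB, passed the limit on p (limma adjusted p = 0.0119) but not that on the fold change (-0.39, SE 0.09). In the list of 27 NF-kB subunits and receptors of microbial products 4 were lower and 0 higher (2 lower without untreated replicate 2). None of the subunit genes Rela, Relb, Rel, Nfkb1 and Nfkb2 was among the 4. Tlr2, a receptor for bacterial lipoproteins, went from 143, 193 and 161 to 101, 111 and 92.6 RPKM (-0.70 by limma, SE 0.09, adjusted p = 0.000326), while Tlr4, the receptor for LPS, went from 17.5, 20.9 and 22.7 to 20.6, 24.4 and 21.1 RPKM, which overlapped. Nod2, a cytosolic sensor of muramyl dipeptide, fell by 0.90 (limma, SE 0.13, adjusted p = 0.000486). The other lower genes were Tlr3, named after its values were seen (-0.55; not called without untreated replicate 2, at -0.52, or 3, at -0.40), and Cd14 (-0.66, limma adjusted p = 0.0131), whose call was lost without untreated replicate 2 (adjusted p = 0.0703) or oxLDL 10 replicates 1 (0.0585) or 3 (0.0621).

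Over all genes tested 2.04% were called lower and 0.748% higher, and of 15 inflammasome genes 3 were lower. Besides Il1b these were the sensor Nlrp3, which went from 22.1, 26.8 and 21.8 to 14.2, 14.9 and 13.1 RPKM (limma log2 fold change -0.74, SE 0.07, adjusted p = 3.2e-05), and Casp4 (-0.49, limma adjusted p = 0.0369), whose call was lost without untreated replicate 2 (adjusted p = 0.135) or 3 (0.0973), or oxLDL 10 replicate 1 (0.131) or 3 (0.13). In the list of immediate early factors 4 of 24 were lower, and the lower count was 2 without untreated replicate 2, oxLDL 10 replicate 1 or oxLDL 10 replicate 3. Fos, a subunit of AP-1, went from 57.6, 64.6 and 61.6 to 43.7, 40.7 and 39.9 RPKM (-0.56 by limma, SE 0.09, adjusted p = 0.000937). Mmp14, a membrane-bound matrix metalloproteinase, went from 31.2, 48.0 and 37.1 to 13.4, 16.2 and 11.4 RPKM (-1.49 by limma, SE 0.21, adjusted p = 0.000403), one of 2 lower genes among 16 of its list. The list held 1 lower gene without oxLDL 10 replicate 2 or 3, or without untreated replicate 2 or 3. Of the prostaglandin list 1 of 18 genes was higher and 2 were lower, and these included both a raised and a lowered receptor for prostaglandin E2. The other lower gene was Ptgs2, the inducible cyclooxygenase (-1.18), whose call was lost without untreated replicate 1 (limma adjusted p = 0.0711) or 2 (0.104), or without oxLDL 10 replicate 2 (0.0915) or 3 (0.0756). Ptger2 went from 1.67, 2.07 and 1.79 to 2.88, 3.33 and 2.93 RPKM (0.69 by limma, SE 0.11, adjusted p = 0.000946), and Ptger4 went from 14.0, 18.0 and 18.0 to 8.35, 8.99 and 8.46 RPKM (-0.94 by limma, SE 0.14, adjusted p = 0.000693).

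Lower calls were most numerous among interferon-stimulated genes. Of 38 type I interferon response genes tested 32 were lower and 0 higher, against 2.04% and 0.748% of all genes tested. Their median was -0.87, and 36 of the 38 were lower in 3 of 3 replicate pairs, against 10.5% of all genes tested. Ifit1, which binds viral RNA, stood at 33.9, 55.2 and 65.2 RPKM untreated and at 14.4, 16.5 and 15.8 RPKM with oxLDL 10. It was 3.31-fold lower without overlap (limma log2 fold change -1.67, SE 0.29, adjusted p = 0.00220). Mx1, an antiviral dynamin-like GTPase, went from 9.30, 13.6 and 18.7 to 3.90, 3.99 and 4.61 RPKM (-1.66 by limma, SE 0.19, adjusted p = 7.1e-05). Irf7, the transcription factor that amplifies interferon production, went from 39.6, 53.4 and 68.5 to 33.4, 32.8 and 31.8 RPKM (-0.68 by limma, SE 0.14, adjusted p = 0.00639). In each of these genes the untreated libraries were ordered alike, with replicate 1 lowest, whereas the treated libraries lay close together. Replicate 1 held the lowest untreated value for 38 of 38 genes of the list, against 8806 of the 12838 genes tested, and the median difference was -0.52, -0.88 and -1.21 in replicates 1, 2 and 3. Without untreated replicate 1 the list had 34 lower genes, and the lower count stayed between 29 and 34 over the 16 alternatives.

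Interferon-inducible GTPases, which attack vacuoles that hold microbes, were also mostly lower, with 14 of 16 called lower and 0 higher and the lowest median of the 32 lists (-1.07). By comparison, 2.04% of all genes tested were called lower. Gbp5, whose promoter is printed above, stood at 2.09, 3.38 and 3.78 RPKM untreated and at 0.681, 0.733 and 0.887 RPKM with oxLDL 10 (limma log2 fold change -1.84, SE 0.23, adjusted p = 0.000192). Gbp2 went from 13.6, 25.4 and 24.6 to 6.93, 10.1 and 6.90 RPKM (-1.37 by limma, SE 0.21, adjusted p = 0.000831). Iigp1 went from 2.48, 4.85 and 4.77 to 0.797, 1.59 and 1.09 RPKM (-1.70 by limma, SE 0.34, adjusted p = 0.00590). The treated libraries lay below the untreated ones for each of these genes. Summed over the 16 GTPases, the level was 159, 239 and 270 RPKM untreated and 105, 119 and 109 RPKM with oxLDL 10.

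In 10 of the 32 lists limma called no gene. Those were the integrated stress response, chaperones of the endoplasmic reticulum, heat shock proteins, MHC class I, lysosome, metallothionein, Trem receptor, cell cycle, glycolysis and oxidative phosphorylation genes, of which 3 of 26, 7 of 24, 4 of 18, 6 of 20, 8 of 32, 1 of 6, 3 of 9, 12 of 30, 6 of 25 and 13 of 23 reached an unadjusted p under 0.05, against 22.4% of all genes tested. Leaving out untreated replicate 1 gave 2 lower MHC class I genes and 1 lower lysosome gene. Leaving out oxLDL 10 replicate 2 gave 1 lower lysosome gene and 1 higher cell cycle gene, leaving out untreated replicate 2 gave 1 higher Trem receptor gene, and leaving out untreated replicate 3 gave 1 higher metallothionein gene and 1 higher glycolysis gene. Gdf15, a stress-induced cytokine, stood at 1.70, 1.51 and 1.72 RPKM untreated and at 5.55, 4.26 and 4.4 RPKM with oxLDL 10. The groups did not overlap, but the gene was not called (limma log2 difference 1.46, SE 0.44, adjusted p = 0.0548). With the replicate block it was called (limma adjusted p = 1.6e-06), and the block gave 2 calls in the integrated stress response list. Mertk, a receptor for the uptake of dying cells, went from 2.29, 3.91 and 3.75 to 4.06, 5.98 and 4.89 RPKM (0.59, SE 0.20, limma adjusted p = 0.0843; with the replicate block, limma adjusted p = 0.000271). Of the remaining lists, foam cell markers held 1 higher gene of 18 (Plin2), and 2 of 15 MHC class II and co-stimulation genes (Icosl and Cd40), 1 of 21 alternative activation genes (Pdgfb) and 1 of 21 BCL2 family genes (Bcl2a1d) were lower. Over all genes tested 0.748% were called higher and 2.04% lower, so 1 call in such a list is not read as a change of the list. In the BCL2 family list 3 genes were lower and 1 higher without oxLDL 10 replicate 2 and also with the replicate block, and 2 were lower without untreated replicate 1. In the alternative activation list 2 were lower without oxLDL 10 replicate 2, and 2 were lower and 2 higher with the replicate block. Spp1, or osteopontin, stood between 2210 and 2960 RPKM untreated and between 2024 and 3244 RPKM with oxLDL 10, and the MHC class I light chain B2m between 1539 and 2049 and between 1675 and 2150 RPKM, both of which overlapped.

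Of the 358 calls 137 belonged to a list (21 higher, 116 lower) and 221 to none. Outside the lists, the hyaluronidase gene Hyal1 rose from 1.4, 1.82 and 1.16 to 3.12, 3.20 and 2.75 RPKM (limma log2 fold change 1.02, SE 0.15, adjusted p = 0.000493). The transcript A530064D06Rik went from 4.17, 4.49 and 4.66 to 9.58, 8.08 and 9.48 RPKM (1.01 by limma, SE 0.09, adjusted p = 2.3e-05). Nptx1, a pentraxin, rose by 1.10 (limma, SE 0.26, adjusted p = 0.0179), a call lost without untreated replicate 2 (adjusted p = 0.0886) or oxLDL 10 replicates 1 (0.0861) or 3 (0.0667). The largest fitted increase was that of Snora26, a small nucleolar RNA named after its values were seen (2.50, a value that depends on the pseudocount), which stood at most at 0.000504 RPKM untreated and at 0.203, 1.72 and 0.232 RPKM with oxLDL 10, a level under the 1 RPKM set for naming, and had a difference of -0.01 in DKO. Its call was lost without oxLDL 10 replicate 2 (1.66, limma adjusted p = 0.141) and without untreated replicate 1 (0.0935), 2 (0.0983) or 3 (0.0683). Among decreases, the activation marker Cd69 went from 4.68, 5.39 and 8.09 to 1.52, 1.17 and 1.42 RPKM (-2.04 by limma, SE 0.24, adjusted p = 1.0e-04), and complement factor B (Cfb) from 1.77, 4.17 and 3.18 to 0.683, 1.5 and 0.556 RPKM (-1.66 by limma, SE 0.31, adjusted p = 0.00341). Just under the limit of 1.4-fold, Rnh1, an inhibitor of ribonucleases, went from 180, 205 and 208 to 272, 274 and 264 RPKM (0.45 by limma, SE 0.06, adjusted p = 0.000428), which did not overlap.

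The higher amount of oxLDL was compared with the same 3 untreated libraries, so its values are set beside those of oxLDL 10 without a measure of likeness. There 1786 genes were called, or 13.9% of those tested. Abcg1 stood at 79.3, 96.4 and 87.6 RPKM with oxLDL 60, 4.02-fold above untreated cells where oxLDL 10 gave 3.34-fold, and Abca1 at 24.6, 34.6 and 31.2 RPKM. Cyp51 stood at 3.42, 3.13 and 3.00 RPKM, near its level of 3.00 ± 0.146 RPKM (SD, n = 3) with oxLDL 10. Other genes were much farther from untreated cells at 60 than at 10 µg/ml. Hmox1 stood at 2821, 2133 and 2556 RPKM, Srxn1 at 473, 440 and 445 RPKM and Gdf15 at 28.1, 18.0 and 27.0 RPKM, which was 4.79-fold, 5.73-fold and 14.8-fold above untreated, where oxLDL 10 gave 1.92-fold, 1.85-fold and 2.88-fold. Cxcl10 stood at 2.30, 2.30 and 1.74 RPKM, with a log2 difference of -5.39 from untreated, and Mmp14 at 2.27, 1.69 and 1.82 RPKM, with one of -4.25. By list, the median log2 difference was 0.20 with oxLDL 10 and 0.28 with oxLDL 60 for LXR targets, -0.58 and -0.70 for cholesterol synthesis, 0.34 and 1.04 for NRF2 targets, 0.12 and 0.80 for the integrated stress response, -0.87 and -1.91 for the type I interferon response and -1.07 and -2.18 for the GTPases. No test between the 2 amounts was made here.

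**Figure D4:**
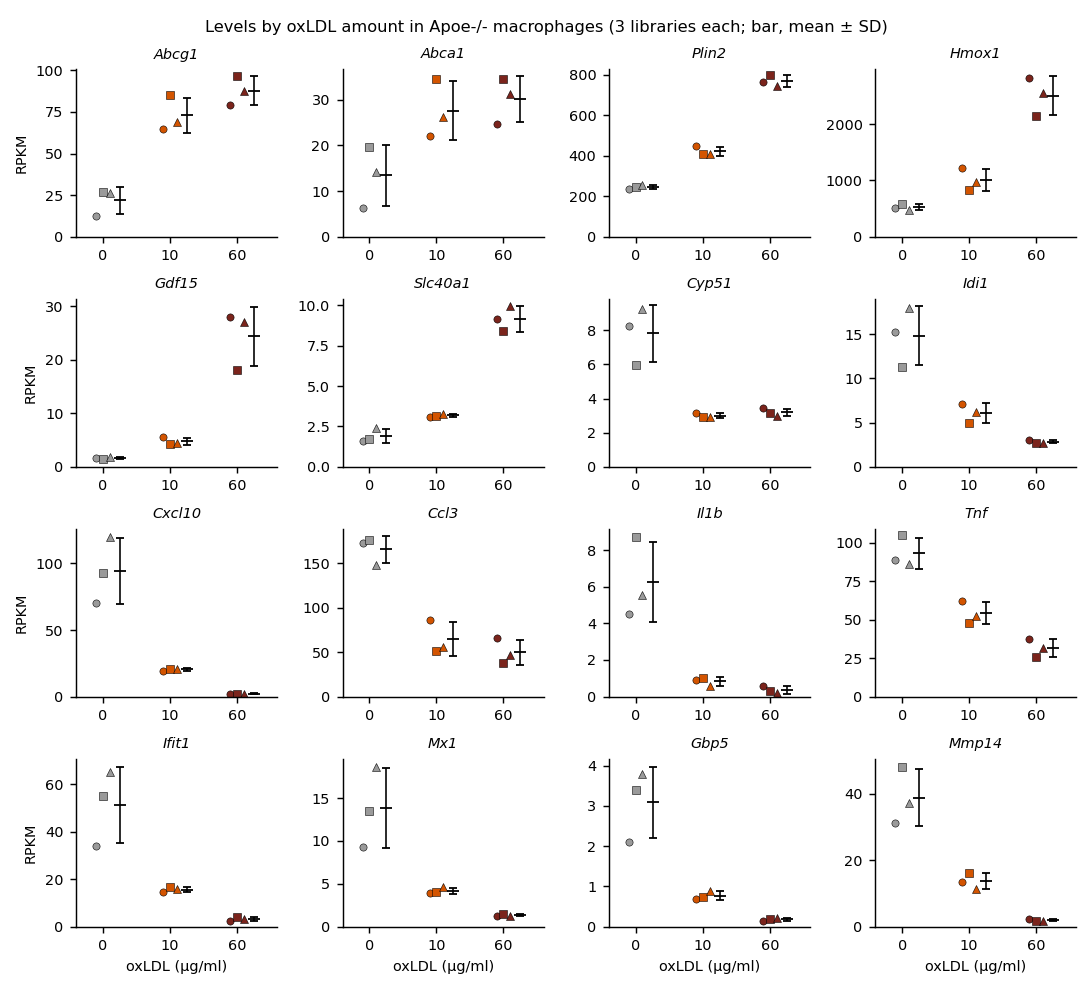
Levels (y axis, RPKM, each panel from 0) of 16 genes in Apoe-/- macrophages at 0, 10 and 60 µg/ml oxLDL (x axis), with 3 libraries per amount marked by replicate and a black bar for the mean ± SD. Abcg1, Abca1 and Cyp51 at 10 µg/ml lie near their level at 60 µg/ml, whereas Hmox1, Gdf15 and Slc40a1 lie nearer to the untreated level.

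The same treatment was compared in DKO cells, which share no library with the Apoe-/- comparison. Both comparisons came from the same fit with a common estimate of each gene's spread, so their calls are not independent. In DKO 290 genes were called, or 2.26% of those tested. Of these, 244 were called in the same direction in Apoe-/- (56 higher, 188 lower), which was 68.2% of the Apoe-/- calls and 84.1% of the DKO calls, and 0 were called in opposite directions. Of the 358 Apoe-/- calls 356 had the same sign in DKO, against 74.6% of all genes tested, and for 326 of them (91.1%) the DKO libraries did not overlap in that direction, against 17.4% of all genes. In DKO the genes called higher in Apoe-/- had a median of 0.58 (0.63 in Apoe-/-) and those called lower one of -0.74 (-0.81 in Apoe-/-). Without DKO untreated replicate 3 the DKO count was 185, without DKO oxLDL 10 replicate 2 it was 186, and with the replicate block it was 449. Cxcl10 stood at 65.4, 74.0 and 111 RPKM in untreated and at 21.1, 14.5 and 22.8 RPKM in oxLDL 10 DKO libraries (limma log2 fold change -2.08, SE 0.23, adjusted p = 8.5e-05). Abcg1 stood at 9.24, 11.1 and 18.0 RPKM and at 71.3, 74.9 and 70.1 RPKM (2.55 by limma, SE 0.24, adjusted p = 1.1e-05).

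Whether the response to oxLDL 10 differed between the genotypes was tested by the interaction. With limma 0 genes were called (0.0%), and 246 genes, or 1.92%, reached an unadjusted p under 0.05, among them 20 of the 358. With the replicate block 1 gene was called, Scd2, whose rise was larger in DKO. It stood at 2.58, 2.18 and 2.58 RPKM in untreated and at 11.6, 13.7 and 11.2 RPKM in oxLDL 10 DKO libraries (log2 fold change 2.26, beside 0.97 in Apoe-/-), a difference of 1.29 (SE 0.26, limma adjusted p = 1.00; with the replicate block, SE 0.18, limma adjusted p = 0.0386). In untreated cells all 3 DKO libraries lay below all 3 Apoe-/- libraries for this gene, while the treated libraries of both genotypes ran from 9.43 to 13.7 RPKM.

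**Figure D5:**
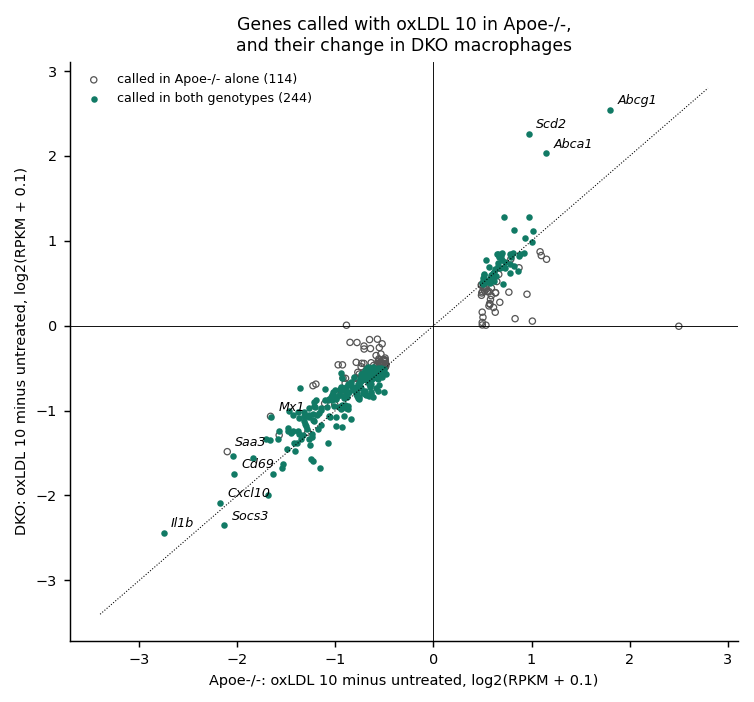
Difference between oxLDL 10 and untreated macrophages (log2(RPKM + 0.1)) in Apoe-/- (x axis) and DKO (y axis) for the 358 genes called in Apoe-/-, filled green for the 244 that were also called in DKO and open for the others, with the line of equal change dotted. All but 2 of the points lie in the quadrants of equal sign, and Abcg1, Abca1 and Scd2 lie above the line.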

How the data were processed

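RNA-seq of mouse BMDM gave 18 libraries, of which the 6 untreated and oxLDL 10 Apoe-/- libraries were compared here. The authors deposited a table of RPKM values per gene symbol. The submitters' processing notes name STAR and the mm10 build, and the study's methods also name Eland, RNA-SeQC and Subread. Which of these made the counts behind the RPKM, and the annotation, are not given in the sources used here. Sequencers and read lengths differ in the labels and are not tied to libraries, so a run could not be used as a batch and its part in the results was not tested. Since RPKM are shares of a library's reads, 1 dominant transcript shifts the values of all others. The study's own test models counts. The table held none, so no count test was run. Of the symbols, 24 were date-like and were kept. Depth was approximated from the steps between low values and GENCODE M21 lengths (found for 97.3% of symbols); about 48.5% to 52.2% of low values were whole reads within 0.05, and values under 1 read occurred. At this depth 3 reads over 1 kb give 0.0558 to 0.0761 RPKM, which covers counting error only.

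The fit took genes that reached 0.1 RPKM in 3 or more libraries and used limma 3.58.1 in R 4.3.3 (lmFit, eBayes with trend) on log2(RPKM + 0.1), with 1 mean for each of 6 groups over all 18 libraries. P-values were adjusted by Benjamini-Hochberg over 12838 genes in each comparison. Fold changes of low genes are understated on this scale. An exact permutation test of 3 against 3 libraries could not go below p = 0.1. Groups and replicate numbers came from the sample titles. Same-numbered libraries deviated together (r of 0.48, 0.64 and 0.18 across genes; other pairs -0.54 to 0.29), so the numbers were taken to pair the libraries, and a fit with the replicate as a block was an alternative. The script was tested on simulated data. Python 3.11.15 with pandas 2.3.3 and matplotlib 3.10.9 was used for summaries and plots.

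The genes, lists and tests were chosen with earlier results of these data known. Genes were named by rule as the 10 largest called changes in each direction with a mean of at least 1 RPKM and no overlap, the 5 most abundant calls in each direction, the anchors and up to 3 largest calls of each of 32 lists, sex-linked and deleted genes as checks, and the 3 smallest adjusted p under 1.4-fold. Some genes that the rule names are not reported here.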

Additional observations from a re-analysis of the deposited data

How the results depend on the processing

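The 358 genes called in Apoe-/- (96 higher, 262 lower) were recounted under 18 other settings. Without a limit on the fold change 904 genes were called (503 higher, 401 lower), and at 2-fold 95 (9 higher, 86 lower). A pseudocount of 1 left 60 higher genes, and leaving out the Xist-positive libraries gave 160. With the replicate block, which pairs libraries by number, 166 genes were higher, and with the block in the 6 libraries alone 581 were called (199 higher). Leaving out 1 library gave 267 to 410 calls, 59 to 142 higher and 174 to 351 lower. In DKO the count of 290 became 449 with the block, 510 without the fold limit, 77 at 2-fold and 185 to 361 without 1 library. For oxLDL 60 it became 3873 without the fold limit and 640 at 2-fold. The interaction gave 1 call with the block and 0 in the other settings. The cause of these shifts was not tested, apart from the limits on fold, which by construction admit more or fewer genes.

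Of 65 called genes named by the rule, 47 kept their call in all 16 alternatives and 0 changed sign. Cpt1a, Elovl6, Marco, Snora26 and Tlr3, named after their values were seen, are not among the 65. Each of them lost its call in some settings. Signs turned for genes without a call. After rescaling by the median ratio the log2 differences were -0.024 for Hspa5, -0.044 for B2m, -0.040 for Ccnd1 and -0.0090 for Bcl2l11. Without the Xist-positive libraries they were -0.0053 for B2m, 0.14 for Mt2, 0.035 for Spp1 and -0.013 for Bcl2l11. With 1 library left out they ran from -0.023 to 0.10 for Hspa5, -0.54 to 0.17 for Hspa1a, -0.22 to 0.93 for Ccl2, -0.11 to 0.098 for B2m, -0.34 to 0.22 for Mt2, -0.26 to 0.032 for Mrc1, -0.18 to 0.16 for Spp1, -0.18 to 0.31 for Ccnd1, -0.043 to 0.28 for Bcl2 and -0.042 to 0.15 for Bcl2l11. The block changed no call of a named gene other than Gdf15, Cx3cr1, Mertk and Apoe, each of which it added. Depth limits genes under about 0.1 RPKM, and with 3 libraries per group the spread between replicates limits the others.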
